A study of Mus musculus with 8 samples.

Results

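Chromatin accessibility around 8 genes of the striatal projection neuron lineage was examined in single-nucleus ATAC-seq (snATAC-seq) libraries of the embryonic mouse forebrain. The genes were the transcription factor genes Ebf1, Foxp1, Foxp2, Isl1, Six3 and Ikzf1 and the dopamine receptor genes Drd1 and Drd2. Peaks overlapping the body of a gene or the 20 kb upstream of it were merged over the 8 samples, and each merged stretch is called an element. The 8 genes held 370 of the 292532 elements of the genome. The question was whether single elements were more accessible in the lateral ganglionic eminence (LGE), the source of striatal projection neurons, where the sum over a whole gene was not.

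Wild-type (WT) tissue was taken from LGE, the medial and caudal ganglionic eminences (MGE and CGE; the 3 eminences jointly GE) and the cortex (CTX), with 2 samples per region, numbered replicate 1 and 2. The age given was E12.5 for 7 samples and E14.5 for the other, CTX replicate 2, so the CTX pair mixes ages. The labels give nuclei isolated from each dissected region, without sorting, and do not say whether embryos were pooled or whether the replicates came from separate litters. The p-values therefore measure the spread between these samples, which may be technical in part.

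The libraries held 3465 to 6845 nuclei, 39253 in all, and 77387940 to 138873845 counts in peaks. Peaks had been called in each sample separately, and LGE replicate 1 had the fewest of them, 103633 covering 87.2 Mb, against up to 182638 peaks and 168 Mb elsewhere. Counts were mostly even, since both ends of a fragment are counted, and odd entries made up 9.54% to 10.4% of the entries in the replicates numbered 1 and 5.17% to 5.85% in those numbered 2. Any pair of libraries shared 15 to 56 nuclear barcodes. Levels are given as CPM, the count divided by the total of the library and scaled to a common total. Marker lists followed the regional labels in most cases. Counts at Nkx2-1, Lhx6 and Lhx8 summed to 863 and 670 CPM in MGE against 133 to 152 in LGE and CGE, and the cortical list to 676 and 420 CPM in CTX against 196 to 257 elsewhere. The median log2 fold of LGE over MGE was -0.02 over the 5 cortical genes. The largest, 1.62 at Neurod6, did not pass (edgeR adjusted p = 0.148). Whether cortical-type nuclei differed between these regions was not tested. The CGE list summed to 380 and 611 CPM in CGE but to 445 and 394 in MGE, so it did not separate those regions. The 4 Dlx genes summed to 797 CPM in LGE replicate 1, below the 1440 of LGE replicate 2 and the 1010 to 1952 of the other GE samples. Over the 8 samples the endothelial list summed to 95.2 to 142 CPM, the microglial list to 128 to 179 and the mural list to 52.5 to 90.01, and 1 or 2 of the 3 erythroid genes were at 0. Their part in the results was not tested.

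Striatal projection neurons are GABAergic cells that leave the LGE and form the direct and indirect output pathways of the striatum. Direct pathway cells carry the dopamine receptor encoded by Drd1, and indirect pathway cells carry that encoded by Drd2. Isl1 and Ebf1 are known for roles in direct pathway cells, Six3 for one in indirect pathway cells, Ikzf1 for one in Penk-expressing striatal neurons, and the forkhead factors Foxp1 and Foxp2 are expressed widely in the striatal mantle. An accessible element can be a promoter or a distal stretch to which factors bind, and accessibility alone does not show that a gene is transcribed.

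The elements on which the results below turn are shown first. Each line gives 300 bp centred on the stretch shared by the peaks of all 6 GE samples, on the plus strand of GRCm38. At Ebf1 +68.1 kb that stretch was 165 bp, so the printed window reaches beyond it on both sides. The first 4 lay in the elements that passed the test between LGE and the other eminences, leaving out the Foxp1 element at +594.4 kb, which overlaps a UTR. The last pair was added after the values had been seen, because the first of them was the only Drd2 element to pass between LGE and MGE and at the other the difference between ranges of nuclei was not the same in LGE as in MGE and CGE. Elements are named by the distance from the gene's start to the element's centre. Capitals mark matches to a homeodomain motif (TAATTA), a MEIS-type motif (TGACAG) or an E-box (CAGCTG) on either strand.
Foxp1 +212.2 kb, chr6:99310235-99310534, intronic: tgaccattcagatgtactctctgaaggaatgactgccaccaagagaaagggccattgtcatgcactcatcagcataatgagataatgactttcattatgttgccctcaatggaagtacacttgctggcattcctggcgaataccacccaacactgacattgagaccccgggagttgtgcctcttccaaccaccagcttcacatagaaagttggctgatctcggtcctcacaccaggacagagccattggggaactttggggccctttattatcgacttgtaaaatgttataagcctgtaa
Ebf1 +68.1 kb, chr11:44684437-44684736, intronic: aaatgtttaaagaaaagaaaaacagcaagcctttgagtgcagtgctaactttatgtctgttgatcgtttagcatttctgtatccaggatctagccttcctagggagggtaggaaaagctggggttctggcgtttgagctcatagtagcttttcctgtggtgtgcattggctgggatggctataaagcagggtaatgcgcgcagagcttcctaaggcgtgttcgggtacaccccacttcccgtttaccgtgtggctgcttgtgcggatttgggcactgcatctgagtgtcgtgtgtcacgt
Drd1 -12.3 kb, chr13:54067803-54068102, upstream: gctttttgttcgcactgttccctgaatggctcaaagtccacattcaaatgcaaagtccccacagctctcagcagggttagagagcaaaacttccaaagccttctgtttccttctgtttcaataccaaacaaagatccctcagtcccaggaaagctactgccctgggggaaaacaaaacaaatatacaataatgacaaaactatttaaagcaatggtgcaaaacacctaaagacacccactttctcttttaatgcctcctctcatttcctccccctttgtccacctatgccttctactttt
Ebf1 +215.8 kb, chr11:44832938-44833237, intronic: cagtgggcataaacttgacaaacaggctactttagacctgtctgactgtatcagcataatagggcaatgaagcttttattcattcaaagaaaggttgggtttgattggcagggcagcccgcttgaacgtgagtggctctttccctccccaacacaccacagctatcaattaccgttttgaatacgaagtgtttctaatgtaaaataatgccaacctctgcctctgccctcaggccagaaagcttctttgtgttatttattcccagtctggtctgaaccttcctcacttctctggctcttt
Drd2 +45.8 kb, chr9:49386241-49386540, intronic: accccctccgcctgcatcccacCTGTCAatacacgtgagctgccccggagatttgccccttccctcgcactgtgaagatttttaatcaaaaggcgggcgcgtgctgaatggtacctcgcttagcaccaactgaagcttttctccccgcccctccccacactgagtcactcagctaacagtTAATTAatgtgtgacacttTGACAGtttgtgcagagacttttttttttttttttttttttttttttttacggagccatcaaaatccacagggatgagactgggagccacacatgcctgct
Foxp1 +202.1 kb, chr6:99319945-99320244, intronic: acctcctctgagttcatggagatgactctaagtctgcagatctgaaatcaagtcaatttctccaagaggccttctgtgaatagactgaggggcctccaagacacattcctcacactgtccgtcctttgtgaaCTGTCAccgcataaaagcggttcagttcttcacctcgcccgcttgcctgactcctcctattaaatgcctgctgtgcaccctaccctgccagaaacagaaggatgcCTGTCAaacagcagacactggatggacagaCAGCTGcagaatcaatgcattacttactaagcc

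The motif search covered an EBF motif (TCCCNNGGG), a forkhead motif (TGTTTAC) and the 3 motifs above. The first 4 windows held none of the 5. The Drd2 window held 1 homeodomain and 2 MEIS-type matches, and the Foxp1 +202.1 kb window held 2 MEIS-type matches and 1 E-box. Windows of the same length, centred on the stretch shared by the most GE samples, were cut from all 76295 elements with a peak in every GE sample, of which 90 belonged to the 8 genes. The homeodomain motif was in 23 of the 90 windows (25.6%) against 10.9% of all windows and 13.4% of the 57661 windows farther than 1 kb from a transcript start. The forkhead motif was in 9 (10%) against 3.84% and 4.403%. The MEIS-type motif (27 windows, 30.0%), the E-box (19, 21.1%) and the EBF motif (4, 4.44%) stood beside 24.3%, 24.4% and 6.36% of all windows. These shares describe letters in the windows and no binding.

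The genes differed widely in size and in the number of their elements. Foxp1 (chr6:98925338-99522721, minus strand) held 164 elements, Ebf1 (chr11:44617317-45008091, plus) 97 and Foxp2 (chr6:14901349-15441977, plus) 69, most of them intronic (146, 88 and 57). Drd2 (chr9:49340627-49408177, plus) held 13, Ikzf1 (chr11:11685003-11772926, plus) 10, Drd1 (chr13:54051183-54055705, minus) 7, Six3 (chr17:85613608-85629302, plus) 7 and Isl1 (chr13:116298281-116309689, minus) 3. At Six3 and Isl1 the start lay in a merged stretch of 25360 and 22374 bp, so single elements could not be told apart there. These stretches held 92.7% to 100% of the Six3 counts and 98.0% to 100% of the Isl1 counts.

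Of the 370 elements 121 had a peak in 1 sample only (32.7%, against 36.3% of all elements), 90 in all 6 GE samples (24.3% against 26.1%) and 78 in all 8 samples (21.1% against 23.3%). No element had peaks in both LGE samples and in no other, and 67 in the genome did. At 8 elements (2.16%, against 1.91% of all elements) both LGE samples and neither MGE sample had a peak, namely Ebf1 at +9.1, +14.9 and +249.6 kb, Foxp1 at +59.9 and +239.3 kb, Foxp2 at +300.1 and +463.3 kb and Drd2 at +43.6 kb. The reverse held for 3 elements (0.811% against 2.86%). Both LGE samples had a peak at no element that both CGE samples lacked (0% against 0.139% of all elements), and 14 elements had peaks in both CGE samples and in neither LGE sample (3.78% against 5.28%). Since CGE replicate 2 had the most peaks within the 8 genes (240) and MGE replicate 1 the fewest (106), presence of a peak was not read further.

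Summed over each gene, no member was called between LGE and the other eminences, in fits that called few genes or none. Over the mean of MGE and CGE the MGE marker Nkx2-1 was not called either (log2 fold -1.76, edgeR adjusted p = 0.106), though against MGE it was. The CGE marker Nr2f2 was not called against CGE (-1.58, 0.844). The lack of calls therefore says little about the members. A gene sum is the count in all of a sample's peaks at the gene, in CPM of all counts in the sample's peaks. No member passed between LGE and the mean of MGE and CGE (0 of 8, with 0% of 18337 genes called higher and 0% lower), between LGE and MGE (0 of 8, against 0.0164% higher and 0.0927% lower) or between LGE and CGE (0 of 8, against 0% and 0%). These and all following calls are adjusted p-values of 0.05 or less from edgeR's quasi-likelihood test, with the Benjamini-Hochberg adjustment over all features tested. Unadjusted p-values under 0.05 were reached by 1065, 1821 and 695 genes in the 3 comparisons, and by 0, 1 and 0 of the members. DESeq2 called none of the 8 in these comparisons, where it called 1.67%, 3.66% and 0.551% of all genes.

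Ebf1 summed to 286 and 276 CPM in LGE, 298 and 307 in CGE, 202 and 264 in MGE and 251 and 225 in CTX. The LGE values thus lay between those of CGE and MGE, and the log2 fold of LGE over MGE and CGE was 0.06 (SE 0.13). Foxp1 summed to 405 and 389 CPM in LGE, 423 and 395 in CGE, 350 and 411 in MGE and 518 and 484 in CTX, and the GE samples overlapped (log2 fold -0.01, SE 0.11, and 0.33 with an offset for the length covered by peaks). That offset moved the median fold of all genes by 0.252 in this contrast, and with the offset rescaled, which left the median of all genes nearly in place, the Foxp1 fold was 0.058. Foxp2 summed to 293 and 266 CPM in LGE, 293 and 259 in CGE, 183 and 261 in MGE and 316 and 356 in CTX. LGE and CGE overlapped, MGE lay below LGE, and CTX was highest, with a log2 fold of LGE over MGE and CGE of 0.15 (SE 0.17).

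Isl1, which encodes a LIM homeodomain factor, summed to 72.5 and 85.5 CPM in LGE, 72.1 and 102 in CGE, 92.4 and 91.2 in MGE and 29.7 and 55.2 in CTX. The eminences were all above CTX, and LGE was below MGE in CPM (log2 fold of LGE over MGE and CGE -0.19, SE 0.15). Its fold was 0.34 with the covered-length offset, beside the shift of 0.252 over all genes, and 0.077 rescaled, so no direction is given for it. Six3, a homeobox gene, summed to 189 and 230 CPM in LGE, 172 and 204 in CGE, 270 and 203 in MGE and 38.0 and 63.3 in CTX, with all GE samples overlapping (-0.02, SE 0.15, with 0.19 under the offset and -0.07 rescaled). Ikzf1, a zinc finger gene, summed to 21.7 and 21.7 CPM in LGE, 19.9 and 16.0 in CGE, 19.6 and 22.4 in MGE and 14.0 and 37.4 in CTX (0.14, SE 0.15).

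The receptor genes had the largest folds of the 8, but neither passed. Drd1 summed to 46.7 and 50.8 CPM in LGE, above the 35.5 and 43.3 in CGE, the 44.5 and 41.0 in MGE and the 28.1 and 25.3 in CTX. Its log2 fold of LGE over MGE and CGE was 0.23 (SE 0.12, edgeR adjusted p = 0.981, unadjusted p = 0.0881). Drd2 summed to 18.9 and 23.5 CPM in LGE, 20.6 and 20.9 in CGE, 14.6 and 14.7 in MGE and 12.7 and 12.0 in CTX (log2 fold 0.26, SE 0.14). Between LGE and MGE alone the Drd2 fold was 0.53 (SE 0.16, edgeR adjusted p = 0.333), and it was -0.03 with a rescaled offset for the length covered by peaks.

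Ordered by group mean, LGE was highest in GE for Drd1 (48.8 ± 2.91 CPM, SD, n = 2, against 42.8 ± 2.48 in MGE and 39.4 ± 5.58 in CGE), where LGE and MGE were the only neighbours in GE whose samples did not overlap. LGE also had the highest mean in GE for Ikzf1, Foxp2 and Drd2, in each case overlapping the next region. For Ikzf1 the LGE samples (21.7 ± 0.00985) lay between those of MGE (20.99 ± 1.95). For Foxp2 LGE (279 ± 19.0) and CGE (276 ± 24.3) did not differ beyond their spread, and neither did they for Drd2 (21.2 ± 3.25 and 20.8 ± 0.239). Of the 8 genes 1, Drd1, had both LGE samples above all MGE and CGE samples, against 8.39% of 17466 genes, and none had both below (4.51%). Per covered kilobase (CPM divided by the length the sample's peaks cover) LGE replicate 1 was the highest GE sample, or level with the highest, for every member, with 13.7 for Drd1, 10.1 for Six3 and 6.74 for Drd2. On that scale both LGE samples were above all MGE and CGE samples for 2 of the 8 genes, Drd1 and Ikzf1 (24.9% of 17466 genes), and below them for none (0.0344%). Its peaks covered the least of any LGE or CGE sample at each gene, for example 36.2 kb at Ebf1 against 53.6 kb in LGE replicate 2.

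**Figure D1:**
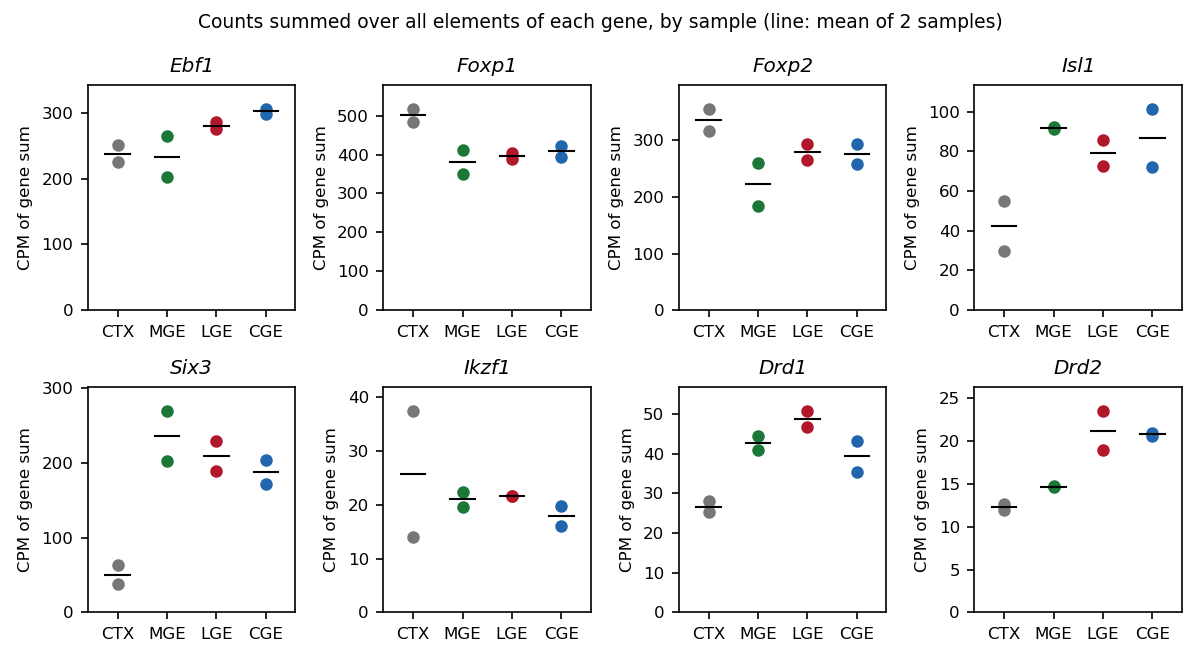
Counts summed over all elements of each gene, in CPM, for the 2 samples of each region (points) with their mean (line). For 7 of the 8 genes at least 1 LGE sample lay within or below the range of the MGE and CGE samples; Drd1, at 46.7 and 50.8 CPM in LGE, was the exception, and it did not pass the test.

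Single elements were called where the gene sums were not. The same held over the whole genome, where 3.62% of elements and 0% of genes were called between LGE and the mean of MGE and CGE. Of the 90 elements tested 4 were called higher in LGE than in the mean of MGE and CGE and 1 was called lower, where 2.02% of all elements were called higher and 1.6% lower, so the counts were small and not far from the background. The 4 belonged to Foxp1, Drd1 and Ebf1. Unadjusted p-values under 0.05 were reached by 16 of the 90 (17.8%, against 18.3% of all elements), and DESeq2 called 7 (7.78% against 10.1%), both at or below the background. None of the 5 was called when all 8 samples were fitted together (adjusted p = 0.161 to 0.408) or when all merged elements were tested (0.0574 to 0.109), but these fits called 0% of all 68274 and 152390 elements, so the loss was not particular to the members. The median log2 fold was 0.13 over the 90 and 0.02 over all elements, and 57 of the 90 folds were positive. Without MGE replicate 1 the median over the 90 was 0.033 and without MGE replicate 2 it was 0.22. In the third of nuclei richest in progenitor gene counts it was -0.016, and -0.023 over all elements. In the third richest in neuron gene counts it was 0.215, and 0.0056 over all elements. The median over the 90 thus varied with the samples and nuclei used, so no direction is given for it. Both LGE samples lay above all 4 MGE and CGE samples at 10 of the 90 elements (11.1%), against 10.8% of all elements, and below them at 4 (4.44%), against 9.51%. Per covered kilobase the counts were 16 (17.8% against 19.2%) and 0 (against 0.935%).

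The Foxp1 +212.2 kb element (chr6:99309570-99311437) had the smallest p. This intronic stretch also lies within the annotated gene Gm20696. It held 18.8 and 17.9 CPM in LGE, 11.4 and 12.1 in CGE, 3.70 and 2.57 in MGE and 5.80 and 4.17 in CTX. LGE was highest, CGE intermediate and MGE and CTX low, without overlap between LGE, CGE and the rest. Its log2 fold of LGE over MGE and CGE was 1.57 (SE 0.19, edgeR adjusted p = 0.0133). The call was lost without LGE replicate 1 (adjusted p = 0.0609) and without CGE replicate 2 (0.0591), with folds of 1.55 and 1.63. Here and in every other fit that left out a sample, its region was left with 1 sample, which was assumed to vary like the samples of the other regions. Per covered kilobase the order was the same, with 11.5 and 10.4 in LGE against 6.58 and 6.55 in CGE and 2.90 and 2.06 in MGE. The element made up 4.64% and 4.59% of the Foxp1 counts in LGE.

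A second Foxp1 element, at +594.4 kb near the 3′ end of the gene (chr6:98927385-98929262), lies within 1 kb of the start of an annotated transcript. It held 8.74 and 7.36 CPM in LGE, 7.72 and 5.56 in CGE, 2.18 and 2.13 in MGE and 14.4 and 12.4 in CTX. MGE was low while LGE and CGE overlapped and CTX was highest. The fold of LGE over MGE and CGE was 1.07 (SE 0.19, edgeR adjusted p = 0.0302). It was called in 1 of 6 fits that left out a sample, that without MGE replicate 2, and the adjusted p was 0.0520 to 0.209 in the others (MGE replicate 1, LGE replicates 1 and 2, CGE replicates 1 and 2). Its peaks covered 519 and 559 bp in MGE, 717 and 791 bp in LGE and 861 and 872 bp in CGE, and with the covered-length offset the fold was 0.94 (0.0105) and rescaled 0.70 (0.0263).

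The Drd1 -12.3 kb element (chr13:54067437-54068502) lies between Drd1 and the start of Sfxn1, to which it is nearer. It was counted for Drd1 because it lies in the 20 kb upstream window, and which gene it serves was not tested. It held 10.6 and 12.7 CPM in LGE, 4.94 and 5.36 in CGE, 6.11 and 5.93 in MGE and 0.965 and 0.865 in CTX. Both LGE samples were above all other samples, and CTX was the lowest. The fold was 1.06 (SE 0.18, edgeR adjusted p = 0.0295). Leaving out 1 sample kept the call only without MGE replicate 2, with adjusted p-values of 0.0519 to 0.169 and folds of 0.87 to 1.18 in the other 5 fits. The element covered similar lengths in all GE samples (877 to 1066 bp), and its density was 11.3 and 12.3 CPM per covered kilobase in LGE against 5.03 to 6.62 in MGE and CGE. It made up 22.8% and 24.99% of the Drd1 counts in LGE and 12.4% to 14.46% in MGE and CGE.

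The largest part of the Drd1 sum came from the element at -16.9 kb, which also holds the start of Sfxn1. It took 47.0% to 69.7% of the Drd1 counts and held 21.9 and 24.1 CPM in LGE against 19.3 to 27.1 in MGE and CGE, with overlap. The Drd1 start itself held 14.1 and 13.3 CPM in LGE, 11.2 and 9.89 in CGE, 12.0 and 10.9 in MGE and 8.10 and 6.80 in CTX. Both LGE samples were above all others there as well, but the element was not called (log2 fold 0.31).

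Ebf1 held 1 element of each direction. The one at +215.8 kb (chr11:44832078-44834151) held 26.6 and 26.9 CPM in LGE, 17.5 and 17.3 in CGE, 14.1 and 16.0 in MGE and 12.2 and 8.38 in CTX. LGE was above every other sample (log2 fold 0.71, SE 0.14, edgeR adjusted p = 0.0380). The call was lost in 5 of 6 fits that left out a sample (adjusted p = 0.0601 to 0.215), all but that without MGE replicate 2, and it was also lost with a rescaled offset for covered length (0.139). The one at +68.1 kb (chr11:44684219-44686528) held 0.621 and 1.40 CPM in LGE, 2.28 and 1.78 in CGE, 10.9 and 19.0 in MGE and 1.45 and 2.07 in CTX. MGE was the highest, and both LGE samples were below every other sample. The fold of LGE over MGE and CGE was -2.46 (SE 0.42, edgeR adjusted p = 0.0274), against -3.92 over MGE and -0.998 over CGE. Its peak covered 165 bp in LGE replicate 1 against 1311 and 2142 bp in MGE. With an offset for covered length, which moved the median of all elements by 0.21, the fold was -0.71 (adjusted p = 0.175), and with the rescaled offset it was -0.99 (0.0467). The call was lost without LGE replicate 1 and without CGE replicate 1 or 2 (0.0865, 0.0647 and 0.0771).

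The elements at the main gene starts were not called. Their log2 folds of LGE over MGE and CGE were 0.36 for Foxp2 (element at -0.9 kb), 0.31 for Drd1, 0.24 for Drd2, 0.23 for Ikzf1, 0.12 for Foxp1, 0.11 for Ebf1, -0.01 for Six3 and -0.10 for Isl1. The Foxp2 start, with the largest of these folds, held 80.0 and 68.1 CPM in LGE, 61.2 and 45.8 in CGE, 63.9 and 57.8 in MGE and 76.7 and 75.4 in CTX. The Ebf1 start held 56.7 and 58.2 CPM in LGE, 53.6 and 57.2 in CGE, 51.8 and 48.8 in MGE and 30.6 and 46.8 in CTX. The Foxp1 start, at 56.3 and 56.3 CPM in LGE, lay within the 45.9 to 63.9 of MGE and CGE.

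More elements were called between LGE and MGE, where the difference between contrasts itself was not tested. Here 11 of the 90 elements were called higher in LGE and 1 lower, where 6.01% of all elements were called higher and 5.05% lower. Foxp1 had 4 of the 11, Ebf1 3, Foxp2 2, Drd1 1 and Drd2 1, while none of the 5 tested at Isl1, Six3 and Ikzf1 was called. The median fold was 0.25 over the 90 and 0.02 over all elements. Both the median and the tilt to higher calls depended on the MGE samples. The median was 0.056 without MGE replicate 1 and 0.44 without MGE replicate 2, where that over all elements was 0.0046 and 0.0076. In the third of nuclei richest in progenitor gene counts the median was 0.072, and -0.049 over all elements. There 4 of the 90 were called in each direction, where 3686 of all 76279 elements were called higher and 4544 lower. In the equal share of nuclei richest in neuron gene counts the median was 0.367, and -0.0038 over all elements. In that share 12 of the 90 were called higher and 1 lower, where 2762 of all 75916 elements were called higher and 1851 lower. The difference between these shares of nuclei was not tested. With all nuclei, unadjusted p-values under 0.05 were reached by 31 (34.4%, against 24.9% of all elements), and DESeq2 called 18 (20% against 17.4%). The Foxp1 elements at +212.2 kb (log2 fold 2.51, SE 0.24, edgeR adjusted p = 0.00231) and +594.4 kb (1.86, SE 0.23, 0.00428) and the Ebf1 elements at +68.1 kb (-3.92, SE 0.47, 0.00384) and +270.4 kb (1.89, SE 0.29, 0.00774) were called in all 6 fits that left out a sample, with the limit given above for a region of 1 sample. The calls of the Drd1 -12.3 kb element (0.93, SE 0.22, edgeR adjusted p = 0.0361) and of Ebf1 +189.4 kb (1.01, SE 0.26, 0.0486) were lost in all 6 of them (0.0624 to 0.214 and 0.0598 to 0.286). The fit of all 8 samples was limited to elements with a peak in each, so it tested 11 of the 12, all but Ebf1 +270.4 kb. It called 3 of these, Foxp1 +212.2 kb, Foxp1 +594.4 kb and Ebf1 +68.1 kb, and 0.694% of all elements. At 7 of the 12 the peaks of both LGE samples covered more than those of both MGE samples, and at 1, Ebf1 +68.1 kb, less. With the covered-length offset 9 of the 12 were called and the 11 folds above 0 were 0.66 to 2.10, and with the rescaled offset 8 were called and these folds were 0.49 to 1.93. Foxp1 +391.2 kb and Ebf1 +189.4 kb were lost with both offsets.

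**Figure D2:**
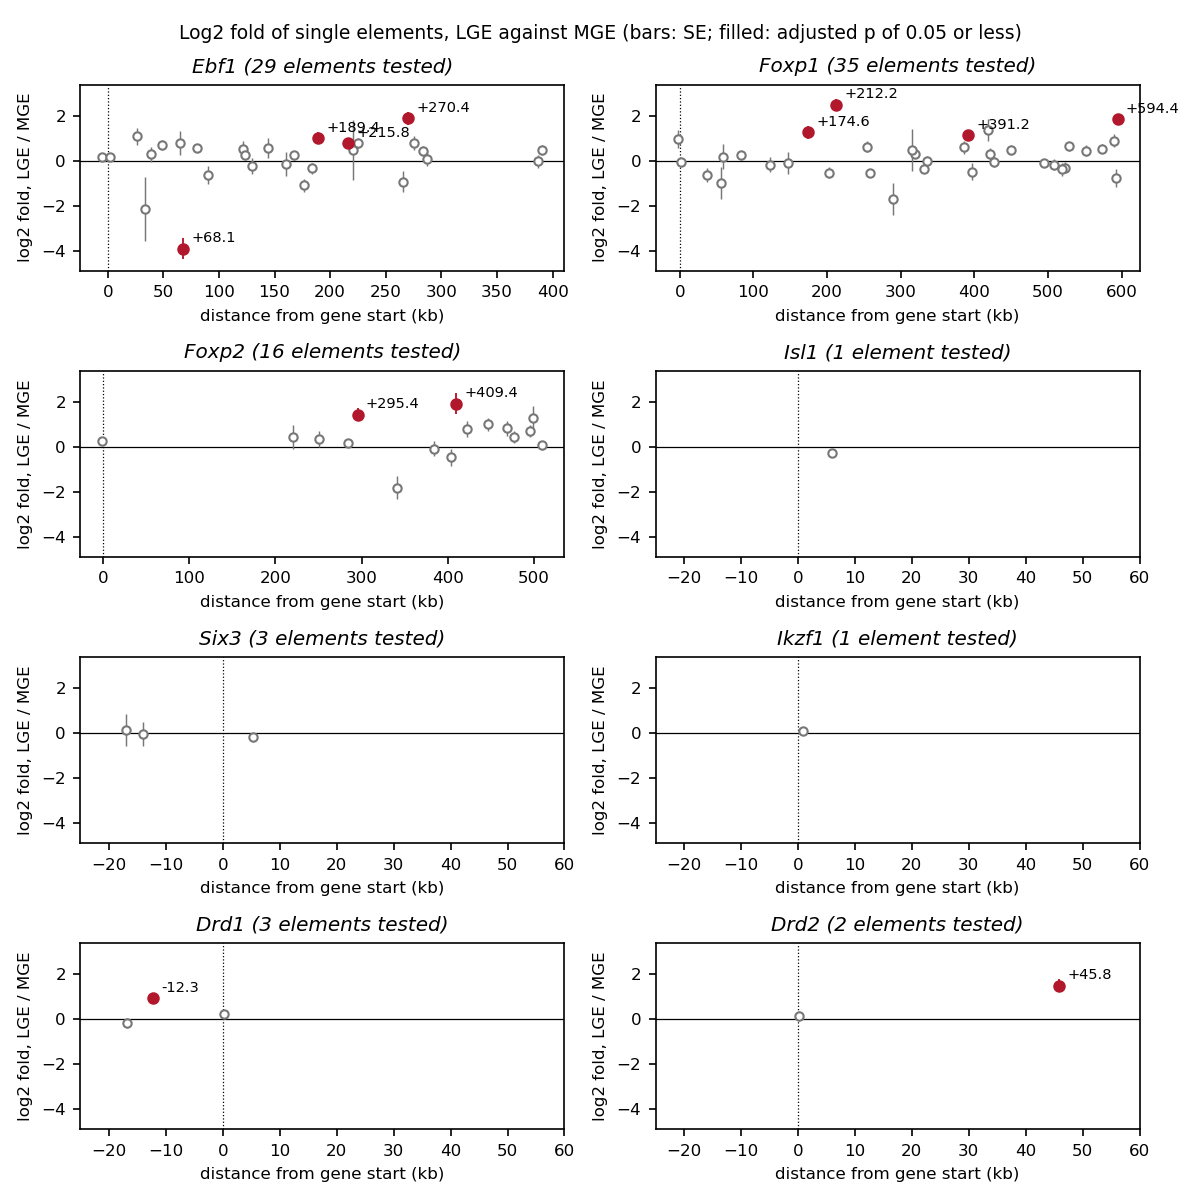
Log2 fold of LGE over MGE for each of the 90 elements tested (points, with SE bars) against the distance from the gene start in kb, one panel per gene. Filled points passed at an adjusted p of 0.05 or less; they lie 174.6 to 594.4 kb into Foxp1, 68.1 to 270.4 kb into Ebf1, 295.4 and 409.4 kb into Foxp2, at 45.8 kb in Drd2 and at -12.3 kb from Drd1, and none lies at a main gene start.

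The Ebf1 +270.4 kb element held 8.87 and 7.42 CPM in LGE, 7.88 and 9.84 in CGE, 1.71 and 2.60 in MGE and none in CTX, where no peak was called. LGE and CGE overlapped and both were above MGE. Its peaks covered 478 and 603 bp in MGE, 736 and 828 bp in LGE and 992 and 1083 bp in CGE, and the fold over MGE was 1.38 (adjusted p = 0.00109) with the covered-length offset and 1.18 (0.00373) rescaled. The Ebf1 element at +189.4 kb held 6.67 and 5.29 CPM in LGE, 5.62 and 3.58 in CGE, 2.88 and 2.91 in MGE and 7.64 and 0.976 in CTX, so its CTX samples lay on either side of all GE samples. Together with +215.8 kb these elements, chosen by their calls, held 14.7% and 14.4% of the Ebf1 counts in LGE, 10.4% and 10.02% in CGE and 9.25% and 8.14% in MGE. The call at +215.8 kb (log2 fold over MGE 0.79, SE 0.16, edgeR adjusted p = 0.0218) was lost without MGE replicate 1 (0.0808), LGE replicate 1 or 2 (0.119 each) and CGE replicate 1 (0.0522).

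A further pair of Foxp1 elements was called between LGE and MGE. That at +174.6 kb held 6.67 and 6.92 CPM in LGE, 5.05 and 4.43 in CGE, 2.06 and 3.51 in MGE and 1.26 and 4.00 in CTX (log2 fold 1.26, SE 0.29, edgeR adjusted p = 0.0331). LGE was above all other samples there. That at +391.2 kb, which the naming rule did not select and which is named after its values were seen, held 4.08 and 4.51 CPM in LGE, 5.63 and 4.31 in CGE, 1.86 and 1.99 in MGE and 1.116 and 2.80 in CTX (1.13, SE 0.25, 0.0294). Both calls were kept only without MGE replicate 2 (adjusted p = 0.0597 to 0.109 and 0.0574 to 0.142 without any other GE sample). The 4 called Foxp1 elements, chosen for their difference between these regions, together held 9.46% and 9.42% of the Foxp1 counts in LGE, 7.05% and 6.68% in CGE and 2.48% to 2.80% in MGE, while the Foxp1 sums of the regions overlapped.

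At Foxp2 the called elements lay at +295.4 kb, over an annotated transcript start within the gene, and at +409.4 kb. The first held 8.13 and 5.88 CPM in LGE, 7.65 and 6.23 in CGE, 2.02 and 3.04 in MGE and 11.9 and 23.4 in CTX (log2 fold over MGE 1.44, SE 0.28, edgeR adjusted p = 0.0178). MGE was low and CTX high, and LGE and CGE overlapped. Its call was lost without MGE replicate 1 (0.0696) and LGE replicate 1 (0.110). The second held 3.87 and 2.89 CPM in LGE, 3.71 and 2.44 in CGE, 0.497 and 1.25 in MGE and 9.21 and 4.31 in CTX (1.93, SE 0.47, 0.0391), the same order of regions. It was lost in 5 of the 6 fits that left out a sample (0.0529 to 0.141), all but that without MGE replicate 2, and with the replicate number as a block (0.0646).

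The Drd2 +45.8 kb element (chr9:49385978-49386800), in an intron, held 3.91 and 3.07 CPM in LGE, 4.11 and 3.39 in CGE, 1.03 and 1.40 in MGE and 1.66 and 2.00 in CTX. LGE and CGE overlapped, above MGE and CTX. The log2 fold of LGE over MGE was 1.49 (SE 0.30, edgeR adjusted p = 0.0206), and it was 0.94 (0.0540) with an offset for covered length and 0.75 (0.0352) with the rescaled one. The call was lost without MGE replicate 1 (0.0717), LGE replicate 1 (0.128) or CGE replicate 1 (0.0527). The element made up 20.6% and 13.0% of the Drd2 counts in LGE, 19.9% and 16.2% in CGE and 7.04% and 9.47% in MGE. The Drd2 start, with 12.52 and 15.5 CPM in LGE, 11.7 and 10.8 in CGE and 13.6 and 11.3 in MGE, was not called.

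**Figure D3:**
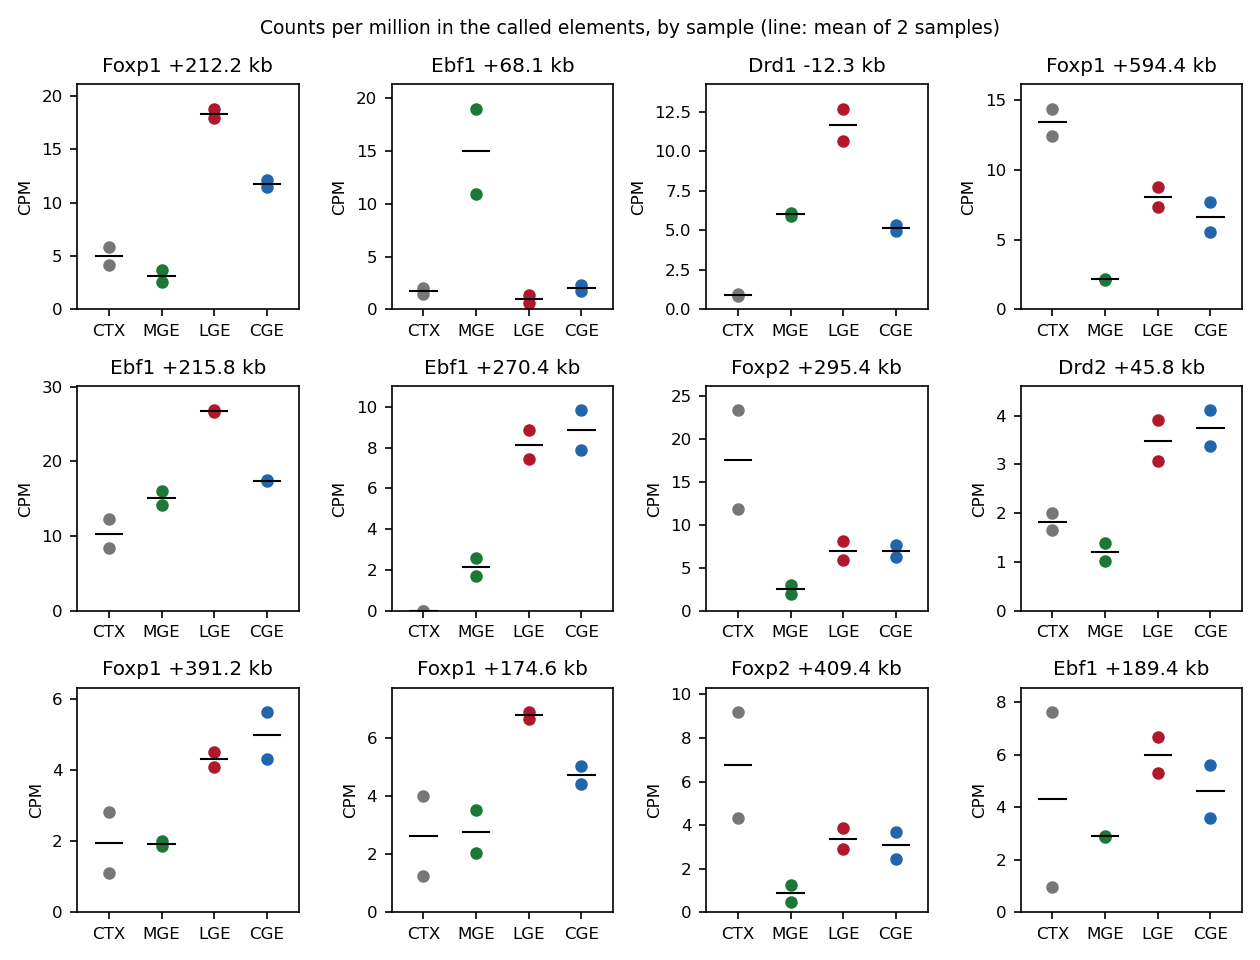
CPM in the 12 elements called between LGE and MGE, for the 2 samples of each region (points) with their mean (line). LGE is above MGE in 11 panels and below it in Ebf1 +68.1 kb, where MGE holds 10.9 and 19.0 CPM; CGE is close to LGE in most panels, and at Foxp1 +212.2 kb, Drd1 -12.3 kb, Ebf1 +215.8 kb and Foxp1 +174.6 kb both LGE samples are above both CGE samples.

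No element was called between LGE and CGE (0 of 90, with 0% of 76295 elements called higher and 0% lower). Unadjusted p-values under 0.05 were reached by 10 of the 90 and by 9512 elements in all, and DESeq2 called 3 of the 90 (3.33%) and 3153 in all (4.13%). The median log2 fold over the 90 was -0.05, against 0.01 over all elements, and 42 were positive. The smallest p-values belonged to Drd1 -12.3 kb (log2 fold 1.18, SE 0.22, edgeR adjusted p = 0.117) and to Foxp1 +573.6 kb (-1.11, SE 0.21, 0.117), which held 13.4 and 12.2 CPM in LGE against 24.8 and 30.1 in CGE. Ebf1 +215.8 kb (0.62, SE 0.16, 0.178) and Foxp2 +477.4 kb (0.88, SE 0.27, 0.233) followed for their genes, and Foxp1 +212.2 kb had a fold of 0.64 (0.287).

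Against CTX the outcome was mixed. The Six3 sum was the only one of the 8 called, higher in LGE by 1.85 on the log2 scale (SE 0.23, edgeR adjusted p = 0.0337), where 0.21% of 18570 genes were called higher and 0.684% lower. This call did not hold without either LGE sample or without either CGE sample, and each of these fits also called a smaller share of all genes. The Six3 fold was 1.60 to 2.16 over all fits that left out a sample. The sums of 6 genes had an unadjusted p under 0.05 (14.1% of all genes did), and DESeq2 called 3 (8% of all genes). Among the elements 4 of 78 were called higher in LGE and 3 lower, where 3.01% of all elements were called higher and 3.81% lower. DESeq2 called 20 (25.6%, against 17.4% of all elements), and 28 had an unadjusted p under 0.05 (35.9% against 22.6%). The median fold was -0.10 over the 78 and -0.01 over all elements, with 37 of the 78 above 0. The median over the 78 turned to 0.21 without CTX replicate 1, where that over all elements was 0.014. With the covered-length offset it was 0.19, as over all elements (0.19). That fit called 7 of the 78 higher and 1 lower, beside 2225 and 718 of all elements. With the rescaled offset the median was -0.041 (4 higher and 4 lower), and -0.033 over all elements (1552 and 2076). No direction is therefore given for the members as a group.

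Of the elements higher in LGE than in CTX, Drd1 -12.3 kb had the largest fold (3.43, SE 0.31, edgeR adjusted p = 0.00894). The stretch over the Six3 start, which also holds starts of other transcripts such as Six3os1, held 192 and 225 CPM in LGE against 35.2 and 65.1 in CTX (1.84, SE 0.29, 0.0189), while MGE and CGE held 169 to 266. Foxp1 +589.3 kb held 3.82 and 4.09 CPM in LGE against 0.670 and 0.698 in CTX (2.29, SE 0.33, 0.0160), and Foxp1 +212.2 kb was called too (1.62, SE 0.31, 0.0291). The elements lower in LGE were Foxp1 +573.6 kb (-1.15, SE 0.23, edgeR adjusted p = 0.0313), Ebf1 +167.7 kb (-1.54, SE 0.31, 0.0334), with 14.0 and 11.01 CPM in LGE against 21.2 and 40.9 in CTX, and Foxp2 +422 kb (-1.84, SE 0.41, 0.0436), with 4.98 and 3.33 against 10.3 and 14.9. With an offset for covered length the fold at Foxp1 +573.6 kb was -0.60 (adjusted p = 0.131) and that at Foxp2 +422 kb -1.30 (0.0530), and with the rescaled offset both were called (-0.83 and 0.0396, -1.54 and 0.0226). The Foxp2 +422 kb call was also lost with the replicate number as a block. None of the 7 calls held without LGE replicate 1 or without LGE replicate 2. In those fits no element of the genome was called, so the loss was not particular to the members. Without either CGE sample fewer of the members were called, and so was a smaller share of all elements. The CTX samples differ in age, and leaving out CTX replicate 2 raised the number of elements called from 7 to 31, while the share of all elements called rose from 6.82% to 22.6%. Leaving out CTX replicate 1 gave 23, with 19.7% of all elements called.

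In each sample the nuclei were ranked by the share of counts at 12 neuron genes among the counts at these and 12 progenitor genes, and the highest 1 in 3 (neuron-ranked) and the lowest 1 in 3 (progenitor-ranked) were each summed. They are ranges and not cell types, and the cuts differed between samples. Progenitor-ranked nuclei had the higher median count in every sample, for example 24807 against 13493 in MGE replicate 2. Over the 6 GE samples 33 of the 90 elements were called higher in neuron-ranked nuclei and 28 lower, where 32.4% of all elements were called higher and 31% lower.

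The counts in each direction are given by gene, and differences between genes were not tested. At Ebf1 13 of 29 elements were higher in neuron-ranked nuclei and 6 lower, and at Foxp2 9 of 16 and 2. At Foxp1 8 of 35 were higher and 15 lower. All 3 Six3 elements and the Ikzf1 start (log2 fold -1.01, SE 0.15, edgeR adjusted p = 0.000173) were lower in neuron-ranked nuclei, and the Isl1 start was higher by a small fold (0.17, SE 0.06, 0.0331). The starts of Foxp1 (-0.64) and Foxp2 (-0.99) were lower in neuron-ranked nuclei, while those of Ebf1 (-0.18), Drd1 (-0.18) and Drd2 (-0.09) were not called.

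The elements called between LGE and MGE were open in different ranges, and at several of them CGE lay at the level of LGE. The Drd1 -12.3 kb element had the most negative fold of the 90 (-3.22, SE 0.22, edgeR adjusted p = 2.15e-06). It held 17.8 and 18.7 CPM in the progenitor-ranked nuclei of LGE and 2.00 and 2.91 in the neuron-ranked ones, and 9.85 to 10.8 against 0.533 to 1.93 in MGE and CGE. The Foxp1 elements at +391.2 kb (-2.27), +594.4 kb (-1.30) and +212.2 kb (-0.65) and the Ebf1 element at +68.1 kb (-1.09) were likewise higher in progenitor-ranked nuclei. At Foxp1 +212.2 kb both ranges kept the regional order, with 24.8 and 20.9 CPM in progenitor-ranked and 11.7 and 13.3 in neuron-ranked nuclei of LGE, 14.49 and 14.65 and 8.60 and 9.68 in CGE, and 2.31 to 4.39 in MGE.

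The opposite held for others. Ebf1 +270.4 kb had the largest positive fold of the 90 (3.52, SE 0.24, edgeR adjusted p = 2.22e-06), with 20.2 and 19.7 CPM in the neuron-ranked nuclei of LGE and 1.17 and 0.736 in the progenitor-ranked ones. The Foxp2 elements at +409.4 kb (1.79) and +295.4 kb (1.14), Drd2 +45.8 kb (1.67) and Foxp1 +174.6 kb (1.17) were higher in neuron-ranked nuclei too. Drd2 +45.8 kb held 7.84 and 5.30 CPM in neuron-ranked nuclei of LGE, 7.29 and 6.26 in those of CGE and 1.26 and 1.82 in those of MGE, against 0.636 to 1.84 in progenitor-ranked nuclei of all GE samples. Ebf1 +215.8 kb (-0.05) and Ebf1 +189.4 kb (0.13) were called in neither direction. Of the 11 elements called higher in LGE than in MGE, 5 were therefore higher in neuron-ranked nuclei, 4 in progenitor-ranked nuclei and 2 in neither. Of the 4 called higher in LGE than in the mean of MGE and CGE, 3 were higher in progenitor-ranked nuclei and 1 in neither. Over all elements 32.4% were called higher in neuron-ranked nuclei and 31% lower, and a difference from these shares was not tested.

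**Figure D4:**
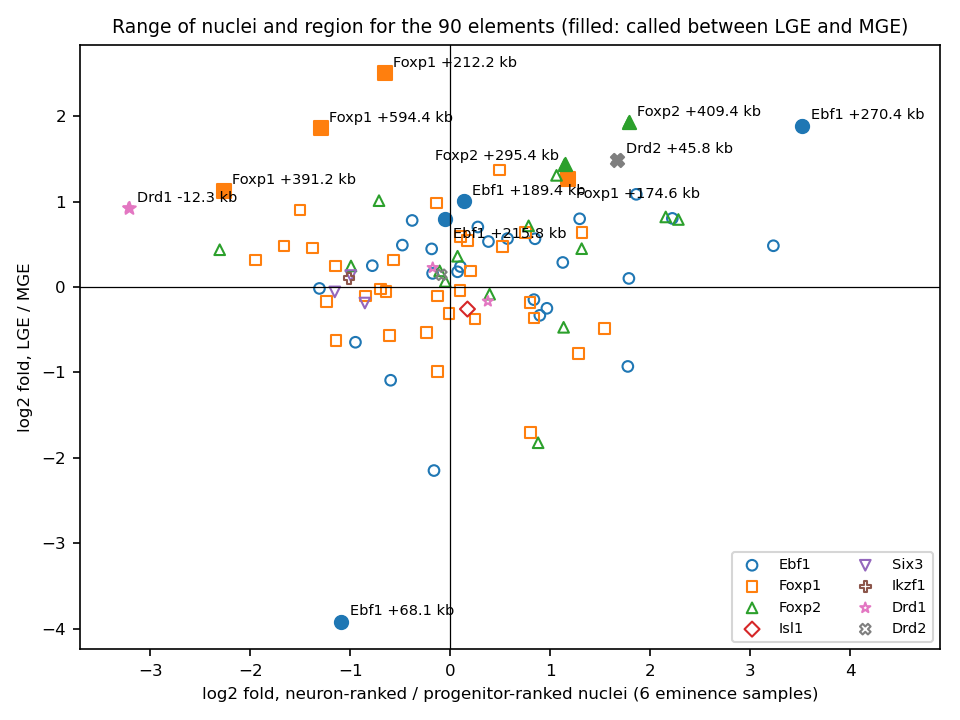
Log2 fold between neuron-ranked and progenitor-ranked nuclei (x axis, 6 GE samples) against the log2 fold of LGE over MGE (y axis) for the 90 elements, with a symbol per gene and filled symbols for those called between LGE and MGE. The called elements spread from -3.22 (Drd1 -12.3 kb) to 3.52 (Ebf1 +270.4 kb) along the x axis; both axes use the same GE samples, so no relation between them was tested.

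Whether the difference between ranges itself depended on the region was asked after the data had been seen. The log2 fold of neuron-ranked over progenitor-ranked nuclei in LGE minus its mean in MGE and CGE was called for 2 of the 90 elements, both positive, where 1.14% of all elements were called higher and 0.426% lower. Unadjusted p-values under 0.05 were reached by 22 (24.4%, against 14.8% of all elements). The median of this difference was 0.27 over the 90 and 0.03 over all elements, and it was positive at 58 of the 90. Over the 90 the median was 0.11 without LGE replicate 2 and 0.33 without CGE replicate 1. At Foxp1 +202.1 kb (chr6:99319346-99321913) the difference was 1.49 (SE 0.28, edgeR adjusted p = 0.0305). The element held 4.95 and 6.57 CPM in neuron-ranked against 2.46 and 4.05 in progenitor-ranked nuclei of LGE. In MGE it held 4.28 and 3.76 against 7.31 and 6.84, and in CGE 2.44 and 2.71 against 3.55 and 3.96. Accessibility was thus higher in the neuron-ranked range in both LGE samples and lower in all 4 others.

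At Foxp2 +510 kb (chr6:15406490-15416111), a stretch of 9622 bp over an exon, the difference was 0.85 (SE 0.17, edgeR adjusted p = 0.0394). Neuron-ranked nuclei held 83.0 and 82.2 CPM in LGE against 56.6 and 52.2 in progenitor-ranked ones. The values were 44.8 and 46.4 against 49.8 and 87.1 in MGE, and 74.7 and 54.1 against 67.4 and 63.5 in CGE, where the replicates went opposite ways. Over the 6 samples together neither element was called between ranges (log2 folds -0.24 at Foxp1 +202.1 kb and -0.05 at Foxp2 +510 kb). Neither call was made without LGE replicate 1 or without LGE replicate 2. In those fits no element of the genome was called, so the loss was not particular to these elements.

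**Figure D5:**
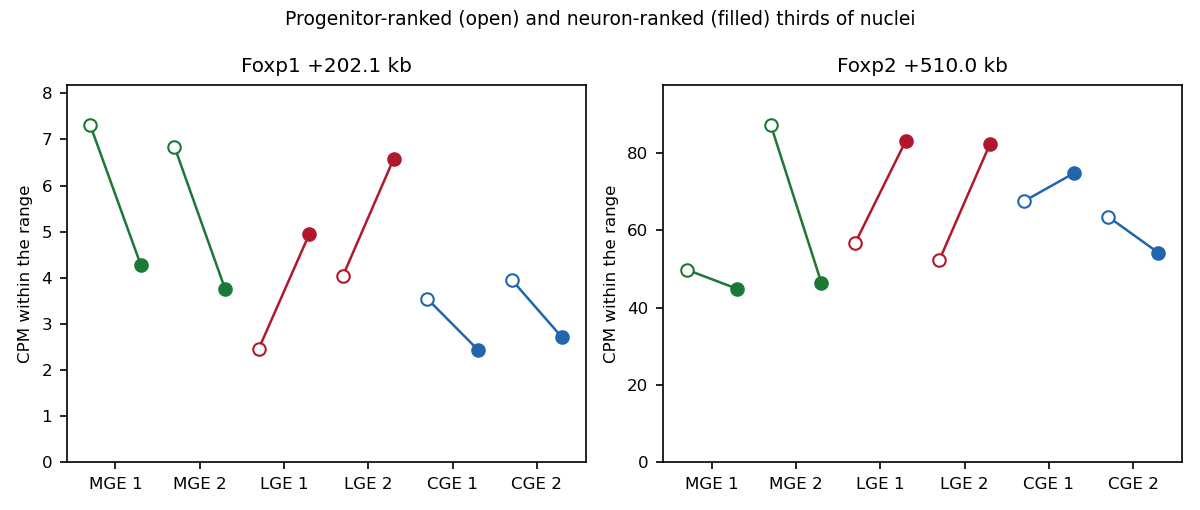
CPM of the 2 elements in progenitor-ranked (open) and neuron-ranked (filled) nuclei of each GE sample, joined by a line per sample. At Foxp1 +202.1 kb the lines rise in both LGE samples and fall in the 4 MGE and CGE samples; at Foxp2 +510 kb they rise in both LGE samples, from 56.6 to 83.0 and from 52.2 to 82.2 CPM, and in 1 CGE sample.

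Deposited counts per transcription factor motif were examined as well. How far they depend on the peak list of each sample was not tested. No motif was called between LGE and the mean of MGE and CGE (0 of 579, 0% higher and 0% lower, with 55 at an unadjusted p under 0.05), and DESeq2 called 10, none of them among the 8 named for member factors or their families. The FOXP2 motif held 933 CPM in LGE replicate 1 but 480 in LGE replicate 2, against 494 to 538 in MGE and CGE and 509 and 546 in CTX, so 1 library set its fold (0.51, edgeR adjusted p = 0.450). The Six3 motif held 81.8 and 75.7 CPM in LGE and 56.7 to 76.5 in MGE and CGE (0.33, 0.414). The EBF1 motif had a fold of -0.17, with 151 and 182 CPM in LGE and 155 to 217 in MGE and CGE. The FOXP1 motif held 362 and 415 CPM in LGE, 473 and 419 in MGE and 376 and 373 in CGE. The median log2 fold was -0.03 over the 8 and -0.005 over all motifs.

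The wider lineage was examined through 32 other genes known from striatal neurons and their progenitors. None of their gene sums was called between LGE and the mean of MGE and CGE, 5 had an unadjusted p under 0.05 (5.81% of all genes did), and the median log2 fold was -0.04. The 5 with the smallest p were Rasgrp2 (log2 fold -0.87, edgeR adjusted p = 0.307), Rxrg (-0.55, 0.535), Mpped2 (0.30, 0.819), Sp9 (-0.31, 0.823) and Gad1 (-0.29, 0.859). Against MGE 1 of the 32 was called, Rasgrp2, lower in LGE (-1.82, 0.0313), where 0.109% of all genes were called, and against CGE none was called. Against CTX 2 were called, both higher in LGE, where 0.894% of all genes were called in either direction. They were Gad2, which encodes a GABA-synthesizing enzyme (1.64, 0.00917), and Gsx2, a homeobox gene of LGE progenitors (2.02, 0.0337).

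For each member the genes with the most similar gene sums were sought over the 8 samples, by Pearson's r of log2(CPM + 1) among 15783 genes with a mean of at least 10 CPM. They were Serpini1 (r = 0.978) and Zfp385b (0.977) for Ebf1, Gm12695 (0.991) and Slco3a1 (0.990) for Foxp1, Inpp4b (0.983) and Angpt1 (0.976) for Foxp2, and Cfap36 (0.997) and Ccdc61 (0.995) for Isl1. For Six3 they were Cnr2 and Vps26b (0.995 each), for Ikzf1 Fn1 (0.967) and Ankrd29 (0.966), for Drd1 Alkbh3 (0.987) and Tmem258 (0.977), and for Drd2 Arhgap25 (0.985) and Rbm12b1 (0.974). With 8 points that share libraries and regions, these values are a description. None of the 32 lineage genes was among them, which says little, since so few of the 15783 genes were taken for each member.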

How the data were processed

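Single nuclei of 8 WT samples were profiled by snATAC-seq. Per the submitters' processing notes, Cell Ranger ATAC 1.2.0 and GRCm38 (mm10) were used. The authors deposited, for each sample, its own peak list, raw counts per peak and nucleus, and raw counts per motif and nucleus. All 1190780 peaks on 21 chromosomes lay within GRCm38 lengths. All deposited nuclei were kept, and no doublet caller was run.

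Counts were summed per sample over peaks merged where they overlapped (292532 elements), and over the peaks at each of 21911 protein-coding genes of GENCODE M21. A sample contributes only its own peaks to an element, so narrower peaks give fewer counts, and covered lengths are given for some of the called elements. CPM of an element or of a gene sum is relative to all counts in peaks of the sample. edgeR 4.0.16 in R 4.3.3 was used (glmQLFit, TMM, filterByExpr) on the 6 GE samples for contrasts within GE (76295 elements with a peak in all 6) and on 8 samples against CTX (68274 elements). SE are those implied by the test. The fit of ranges used sample as a block. Alternatives were DESeq2 1.42.0, no filter, offsets for covered length, a 2 kb upstream window, other sets of samples, elements or nuclei, a replicate block and leaving out each sample. The rescaled offset and the dependence of ranges on region were added after seeing the data. Python 3.11.15 with pandas 2.3.3 and pysam 0.24.0 was used for counting and sequences, and the test scripts were tested on simulated data.

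The genes and lists were chosen with earlier results of these data known. Named elements are those at gene starts, those called (at most 3 per gene and direction and contrast) and, for a gene without a call, the one with the smallest p.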

Additional observations from a re-analysis of the deposited data

Results flagged for a closer look

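The difference between neuron-ranked and progenitor-ranked nuclei was not the same in LGE as in MGE and CGE at 2 of the 90 elements (2.22%), by a test of the difference itself that was chosen after seeing the data. Over all elements 1.57% were called, so 2 is close to the background. At Foxp1 +202.1 kb the log2 difference was 1.49 (edgeR adjusted p = 0.0305), and at Foxp2 +510 kb it was 0.85 (0.0394). The Foxp1 call was lost without LGE replicate 1 (0.235), LGE replicate 2 (0.261), MGE replicate 2 (0.0630) or CGE replicate 2 (0.0563), with differences of 1.36 to 1.64. The Foxp2 call was lost without LGE replicate 1 (0.231), LGE replicate 2 (0.350) or CGE replicate 2 (0.0737), with differences of 0.67 to 1.06. Leaving out 1 sample gave 0 to 5 called elements among the 90, while 0% to 3.1% of all elements were called. No group had 4 or more samples, so single samples were not tested for standing apart.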

How the results depend on the processing

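The number of elements called between LGE and the mean of MGE and CGE, 5 in the reported fit, was 0 when all 8 samples were fitted, 0 when all merged elements were tested, 3 in neuron-ranked and 4 in progenitor-ranked nuclei alone (0%, 0%, 1.37% and 3.76% of all elements), and 0 to 11 when a sample was left out (in the order replicate 1, replicate 2: 2 and 11 without the MGE samples, 0 and 3 without those of LGE, 1 and 0 without those of CGE). The share of all elements called moved with it, from 3.62% in the reported fit to 2.81% and 7.14%, 0.266% and 2.18%, and 0.617% and 0.107% in the same order. Between LGE and MGE, 12 became 3 in the fit of all 8 samples, which also tested 78 elements in place of 90 and so left out 1 of the 12, and 4 to 22 with a sample left out (lowest without LGE replicate 1 and highest without MGE replicate 2, with 4.72% and 14.2% of all elements called). Between LGE and CGE, 0 became 3 with DESeq2, 1 with the covered-length offset and 0 to 1 with a sample left out (4.13%, 1.73% and 0% to 0.879% of all elements). Against CTX, 7 became 20 with DESeq2 and 0 to 31 with a sample left out (17.4% and 0% to 22.6% of all elements). Gene sums called against CTX, 1 in the reported fit, were 3 with DESeq2 and 0 to 3 with a sample left out, and the other gene-sum counts were 0 to 0. Ranges gave 57 to 61 calls with a sample left out (58% to 61.6% of all elements), and motifs 0 to 0, but 10 with DESeq2. The causes were not tested. The replicate block gave 5, 13, 0 and 6 called elements (3.26%, 11.4%, 0% and 6.27% of all elements) and 0, 0, 0 and 1 called gene sums (0%, 0.0109%, 0% and 0.361% of all genes) in the 4 contrasts. The replicate numbers split the libraries by their share of odd entries, and in CTX by age as well. Deviations of same-numbered samples correlated at -0.0417 to 0.324 between regions, so a pairing of the samples was not shown. Called elements kept direction in all 357 alternatives and their call in 214. The elements were chosen by their calls and the alternatives refit the same counts, so this tally is not independent support. It includes the fits without a filter, which were the same as the reported ones for elements. It also includes refits of the 2 elements called for the dependence of ranges on region. Over the 32 gene sums (8 members in 4 contrasts) 44 of 424 alternatives turned the sign of a fold, 16 of them against CGE and 8 against CTX. With the covered-length offset the fold against CTX went from -0.56 to 0.18 for Foxp1 and from -0.48 to 0.016 for Foxp2 (-0.19 and -0.35 rescaled). Among 10 of the 32, the 8 over MGE and CGE with Drd2 over MGE and Six3 over CTX, 13 of 131 did. For LGE over MGE and CGE these were Foxp1 (0.33 with the covered-length offset, 0.058 rescaled), Isl1 (0.34, 0.077) and Six3 (0.19), and for LGE over MGE Drd2 (-0.032 rescaled). Leaving out a sample gave -0.044 to 0.18 for Ebf1, -0.081 to 0.064 for Foxp1 and -0.17 to 0.11 for Six3. The covered-length offset moved the median log2 fold of all elements by 0.21, 0.167, 0.264 and 0.201 in the 4 contrasts, and that of all genes by 0.252, 0.198, 0.31 and 0.333. At 2 samples a region, adjusted p-values close to 0.05 rest on few degrees of freedom, and elements in only some samples were left to the fit of all merged elements.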
